A study of Homo sapiens with 16 samples.

Results

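The CXC chemokines of human blood-derived cell lines were followed at the transcript level before and after immune stimulation. The 8 genes were CXCL1, CXCL2, CXCL3, CXCL8, CXCL9, CXCL10, CXCL11 and CXCL16, taken by symbol from the 27311 genes of each library. Full-length cDNA was made by SmartSeq2, which primes on the poly(A) tail and does not mark strand, and 16 libraries gave 8 groups of 2. THP-1, a monocytic line carrying dCas9-KRAB (a nuclease-dead Cas9 fused to a repressor domain) in both of its groups, received 1 µg/ml LPS, the bacterial lipopolysaccharide, and was compared with untreated THP-1. The monocytic line U937 (wild type) received 200 ng/ml LPS and was compared with untreated U937, so the 2 monocytic lines differ in dose and genotype. Jurkat, a wild-type T cell line, received 5 µg/ml anti-CD3 with 100 ng/ml PMA (a phorbol ester) and was compared with untreated Jurkat. BJAB, a wild-type B cell line, received 10 µg/ml anti-IgM with 4 µg/ml anti-CD40 and was compared with untreated BJAB. Every stimulation lasted 4 h. The labels do not say whether the 2 libraries of a group came from separate cultures, so p-values measure the spread between libraries, which may be technical.

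CXC chemokines are small secreted proteins that steer leukocyte migration through G-protein-coupled receptors. CXCL1, CXCL2, CXCL3 and CXCL8 carry a Glu-Leu-Arg motif before the first cysteines (the ELR chemokines), act on CXCR2 and, for CXCL8, also CXCR1, and are best known for drawing neutrophils. CXCL9, CXCL10 and CXCL11 lack that motif, act on CXCR3 and draw activated T cells and natural killer cells, and are widely known as interferon-inducible genes. CXCL16 is made as a transmembrane protein with a chemokine domain, is released by shedding, and acts on CXCR6. In monocytes and macrophages, LPS acts through TLR4 to NF-kB and to interferon regulatory factors, and many chemokine promoters hold sites for these factors.

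The upstream sequences are shown because the members that moved differ in which line they moved in, while their promoters share elements. In the RefSeq promoter table (GRCh38.p14), 7 of the 8 members had an entry, all on chromosome 4, where their order is CXCL8, CXCL1, CXCL3, CXCL2, CXCL9, CXCL10 and CXCL11. CXCL16 lies on chromosome 17. Over the 250 bases before the annotated start, both strands were searched for GGAANTTCC (a symmetric NF-kB form), GGGANTTCC (another NF-kB form), GAAANNGAAA (the core of the interferon-stimulated response element, ISRE), TATAAA, TTGCNNAA (C/EBP) and TGANTCA (AP-1). These motifs were chosen with the promoters in view. In the sequences below, read 5′ to 3′ on the gene's strand and ending at the base before the start, capitals mark matches to the NF-kB forms, the ISRE core, TATAAA or TGANTCA. The last 150 bases are given for CXCL1 (chr4:73869243-73869392, plus strand), CXCL2 (chr4:74099196-74099345, minus strand), CXCL3 (chr4:74038690-74038839, minus strand) and CXCL8 (chr4:73740419-73740568, plus strand), the ELR chemokines.
CXCL1: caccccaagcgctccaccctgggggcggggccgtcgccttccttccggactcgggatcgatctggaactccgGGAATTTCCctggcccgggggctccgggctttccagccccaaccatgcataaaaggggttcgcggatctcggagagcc
CXCL2: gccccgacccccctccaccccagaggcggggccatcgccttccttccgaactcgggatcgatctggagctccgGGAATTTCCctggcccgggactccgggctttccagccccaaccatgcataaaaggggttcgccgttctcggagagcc
CXCL3: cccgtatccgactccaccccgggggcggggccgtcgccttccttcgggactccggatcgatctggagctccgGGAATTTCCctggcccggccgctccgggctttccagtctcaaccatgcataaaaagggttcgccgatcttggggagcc
CXCL8: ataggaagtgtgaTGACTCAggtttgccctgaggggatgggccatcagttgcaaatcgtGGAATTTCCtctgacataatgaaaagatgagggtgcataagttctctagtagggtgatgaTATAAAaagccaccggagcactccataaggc
The 250 bases of CXCL10 (chr4:76023498-76023747, minus strand) and CXCL11 (chr4:76036071-76036320, minus strand), the detected CXCR3 ligands, follow.
CXCL10: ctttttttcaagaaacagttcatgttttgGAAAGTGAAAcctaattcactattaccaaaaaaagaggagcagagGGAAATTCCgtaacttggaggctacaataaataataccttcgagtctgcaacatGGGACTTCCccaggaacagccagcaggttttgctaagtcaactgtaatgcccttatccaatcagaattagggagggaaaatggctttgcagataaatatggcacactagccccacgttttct
CXCL11: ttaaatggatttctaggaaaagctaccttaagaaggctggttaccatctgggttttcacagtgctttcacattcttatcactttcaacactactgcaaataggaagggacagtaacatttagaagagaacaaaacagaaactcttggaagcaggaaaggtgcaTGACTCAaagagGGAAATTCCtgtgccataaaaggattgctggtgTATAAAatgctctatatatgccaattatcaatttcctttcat

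The symmetric form GGAANTTCC was found in 6 of the 7 members searched, all except CXCL9, and in 0.826% of 35116 promoters of the same length. It began 78, 77 and 78 bases before the start in CXCL1, CXCL2 and CXCL3, 91 bases in CXCL8, 75 bases in CXCL11 and 176 bases in CXCL10. CXCL10 also held GGGANTTCC, present in 1.59% of promoters, and its ISRE core began 221 bases before the start. The ISRE core was found in CXCL10 and CXCL9 and in 3.02% of promoters, TATAAA in CXCL8, CXCL11 and CXCL9 and in 10.7% of promoters, and TGANTCA in CXCL8 and CXCL11 and in 6.57% of promoters. TTGCNNAA, not in capitals above, was found in CXCL2 and in 9.05% of promoters. The 150 bases before the start were 88.7% identical between CXCL1 and CXCL2, 88.1% between CXCL1 and CXCL3 and 86.1% between CXCL2 and CXCL3, against 43.6% to 45.1% between each of these and CXCL8. A match is a description of letters, not evidence of binding.

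**Figure D1:**
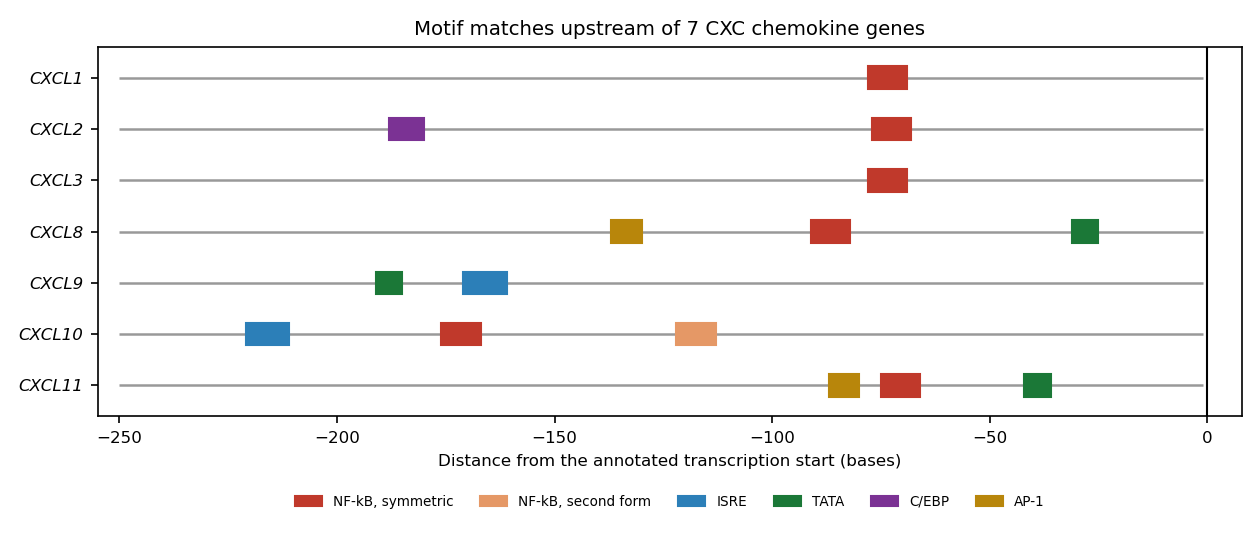
Position of motif matches in the 250 bases before the annotated start of 7 CXC chemokine genes (x axis, bases; one line per gene; coloured boxes, matches on either strand). The symmetric NF-kB form lies 78 to 67 bases before the start in CXCL1, CXCL2, CXCL3 and CXCL11, farther upstream in CXCL8 and CXCL10, and is not in the CXCL9 window.

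Levels are in TPM (transcripts out of 1000000 in the library, a value corrected for transcript length), and the whole reads recovered from the TPM steps give a depth of 4125221 to 8431295 reads per library. Changes are differences of log2(TPM + 1) with their standard error (SE) from limma, fitted to 14398 genes with at least 1 TPM in at least 2 libraries, with Benjamini-Hochberg adjusted p-values over all of them and a threshold of 0.05. This scale understates the change of genes near 0. CXCL9 failed the filter, so 7 of the 8 members were tested. A gene listed at 0 TPM in a library could have had up to 3 reads, which is 0.451 to 1.39 TPM depending on the gene and library (counting error only). Markers matched the labelled lines: the summed level of 12 monocytic markers was 7982 to 8817 TPM in THP-1 and 9320 to 11930 TPM in U937, 12 T-lineage markers gave 5601 to 7628 TPM in Jurkat, and 12 B-lineage markers gave 2338 to 7303 TPM in BJAB. BJAB also had a mean of 410.2 TPM of EPCAM, an epithelial marker, and Jurkat 395.5 TPM of CTSG and 138.7 TPM of CD79A. The first LPS library of U937 and the first stimulated library of BJAB stood apart from their partners: the SD of the log2 difference between the 2 libraries was 0.891 in LPS-treated U937 and 0.958 in stimulated BJAB, against 0.351 to 0.46 in the other 6 groups. In that U937 library, the shortest of 5 length classes of genes had a median of 0.11 over the untreated mean on the log2 scale and the longest class -0.76. CXCL1, CXCL2, CXCL3, CXCL10 and CXCL11 belong to the shortest class and CXCL8 and CXCL16 to the next. The part of this in the results was not tested. In bulk RNA, more cells with a transcript and more transcript per cell cannot be told apart.

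CXCL1, CXCL2 and CXCL3 are close copies: the longest reading frames of their GENCODE 29 transcripts, 324 bases each, were 93.5% identical between CXCL1 and CXCL2, 90.7% between CXCL1 and CXCL3 and 94.4% between CXCL2 and CXCL3, and the transcripts share identical runs of up to 97 bases. Only unique alignments were counted, per the labels of the deposited files, so reads that align equally well to more than 1 of them are missing, and the split between these 3 is uncertain. CXCL8 was 52.5% to 54.1% identical to them, with identical runs of up to 18 bases. Its share beside these 3 may therefore be too high.

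By stimulation, 1 of the 7 tested members rose in THP-1, CXCL10, where 0.167% of all tested genes were called and 0.118% were called higher. In U937, 1 rose, again CXCL10, where 0.0278% of genes were called and 0.0208% higher. In Jurkat, 2 rose, CXCL3 and CXCL8, where 4.87% of genes were called and 3.02% higher. No member was called in BJAB by limma, where 6.4% of genes were called and 1.63% higher, and none had an unadjusted p under 0.05 or passed with voom on the recovered reads. CXCL1, CXCL2, CXCL3, CXCL8 and CXCL10 were listed at 0 in every BJAB library, so only CXCL11 and CXCL16 could have been called there. No member fell by the test in any of the 4 stimulations, where 0.0486%, 0.00695%, 1.85% and 4.76% of genes were called lower in THP-1, U937, Jurkat and BJAB. The median change of the 7 members on the log2 scale was 1.01 in THP-1 and 1.2 in U937, beside -0.06 and -0.25 over all tested genes. In Jurkat it was 0.45 beside -0.03, and in BJAB 0.00 beside -0.14. The BJAB value is that of the members listed at 0 in every library of the line. The median was the value of 1 gene, CXCL11, in both THP-1 and U937, where its adjusted p in limma was 0.726 and 0.329. CXCL11 reached 1 TPM only in stimulated libraries, so it passed the filter through them. CXCL10 also passed through its LPS libraries, since only 1 untreated library, of U937, reached 1 TPM (1.48 TPM). The shares of all tested genes beside the CXCL10 calls are to be read with that limit. In Jurkat the median was the value of CXCL2, with 1 and 2 reads after stimulation. The members were chosen with earlier results known, so these medians do not show a rise of the family. The SE was pooled over 8 groups, to which a gene at 0 in both libraries of a group adds no spread. With the compared lines alone the SE was 0.19 against 0.27 pooled for CXCL3 in Jurkat, 0.18 against 0.32 for CXCL10 in THP-1, and 0.62 against 0.32 for CXCL10 in U937.

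**Figure D2:**
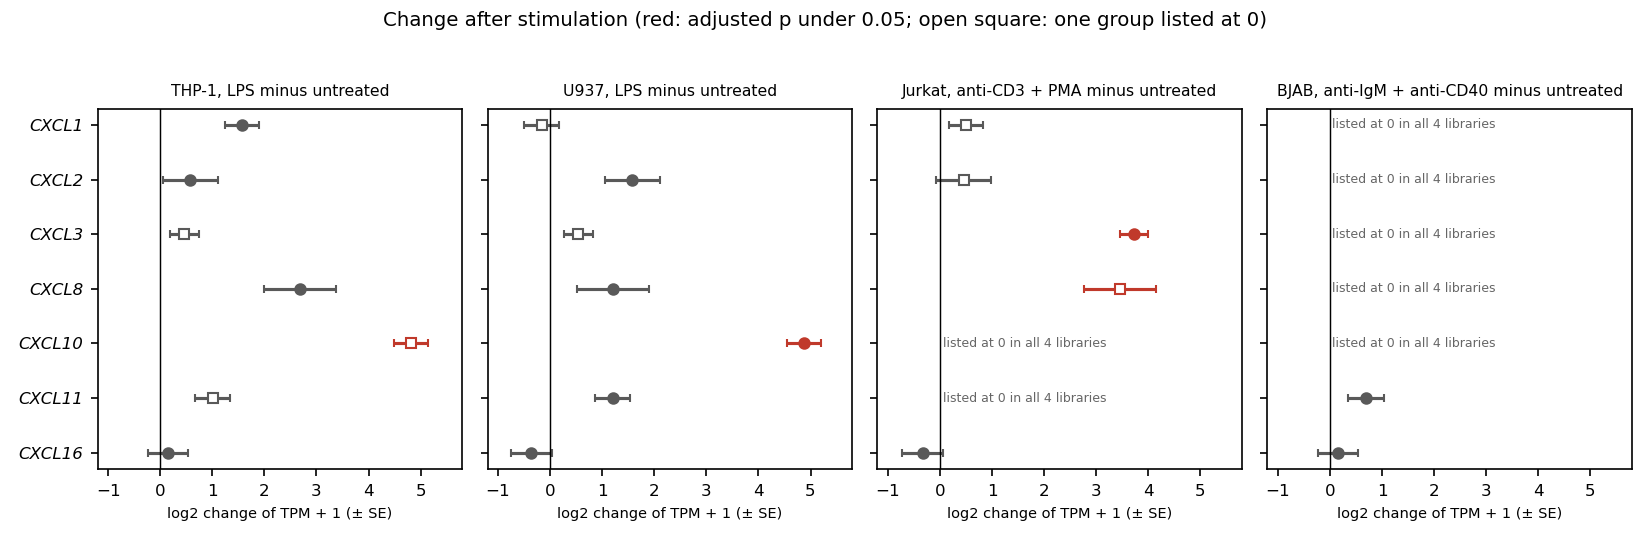
Change of log2(TPM + 1) in stimulated minus untreated cells of each line (x axis) for the 7 tested members (y axis); bars show the SE, red marks adjusted p under 0.05, and open squares mark genes with one group listed at 0, whose position depends on the pseudocount of 1. CXCL10 stands at 4.82 in THP-1 and 4.87 in U937, CXCL3 at 3.72 and CXCL8 at 3.46 in Jurkat.

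The neutrophil-attracting ELR chemokines differed in which member was present in each line. CXCL8 was the leading ELR transcript in LPS-treated THP-1 and in 1 of the 2 LPS-treated U937 libraries, CXCL3 led in Jurkat, and BJAB had none listed above 0. CXCL1 was mainly a THP-1 transcript, and CXCL2 was highest in U937. Of these 4 genes, CXCL3 and CXCL8 rose in stimulated Jurkat, and none passed the test in either monocytic line.

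CXCL8, the interleukin-8 gene, had 27.8 and 14.1 TPM in LPS-treated THP-1 and 3.16 and 1.51 TPM in untreated THP-1, from 181 and 80 reads against 18 and 10. Both LPS libraries lay above both untreated libraries. The difference on the log2 scale was 2.69 ± 0.69 (SE), with an adjusted p of 0.330 in limma. In LPS-treated U937, CXCL8 had 4.92 and 44.6 TPM, against 5.95 and 6.34 TPM in untreated U937. One LPS library lay above the untreated pair and the other below it, and the difference of 1.2 ± 0.69 had an adjusted p of 0.363. The low library was the one that stood apart. Without it and the first stimulated BJAB library, the SE of CXCL8 fell to 0.31 in THP-1, its adjusted p was 0.00647 in THP-1, and in U937 the difference was 2.67 with an adjusted p of 0.0793. In stimulated Jurkat, CXCL8 had 10.0 TPM in both libraries, from 57 reads each, and was listed at 0 in both untreated Jurkat libraries. It rose by the test, with an adjusted p of 0.0126, and leaving out any 1 Jurkat library gave 0.0878 to 0.0914. All 4 BJAB libraries listed CXCL8 at 0.

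CXCL3 gave the highest level of any member in the series. It had 54.8 and 63.1 TPM in stimulated Jurkat and 4.10 and 3.01 TPM in untreated Jurkat, from 211 and 243 reads against 17 and 10. The rise was 3.72 ± 0.27 on the log2 scale, with an adjusted p of 6.03e-06 in limma, and it passed the threshold in all 15 alternatives run for it. Outside Jurkat, CXCL3 had 0.908 and 0 TPM in LPS-treated THP-1 and 0.704 and 0.244 TPM in LPS-treated U937, which is at most 4 reads, and was listed at 0 in untreated THP-1, in untreated U937 and in BJAB. Its close copies stayed low beside it in stimulated Jurkat, where CXCL1 had 4 and 0 reads and CXCL2 had 1 and 2 reads.

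CXCL1 had 9.0 and 4.55 TPM in LPS-treated THP-1 and 2.01 and 1.08 TPM in untreated THP-1. The libraries did not overlap between the groups, and the difference of 1.57 ± 0.33 on the log2 scale had an adjusted p of 0.163 (unadjusted 0.000567). In the other 12 libraries it reached at most 1.00 TPM. CXCL2 had 9.0 and 8.20 TPM in LPS-treated U937 and 4.89 and 0.749 TPM in untreated U937, a difference of 1.58 ± 0.53 with an adjusted p of 0.329. The untreated U937 libraries spread more widely than the LPS-treated ones. In THP-1, CXCL2 had 2.39 and 0.501 TPM with LPS and 0 and 1.29 TPM untreated, so the groups overlapped.

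**Figure D3:**
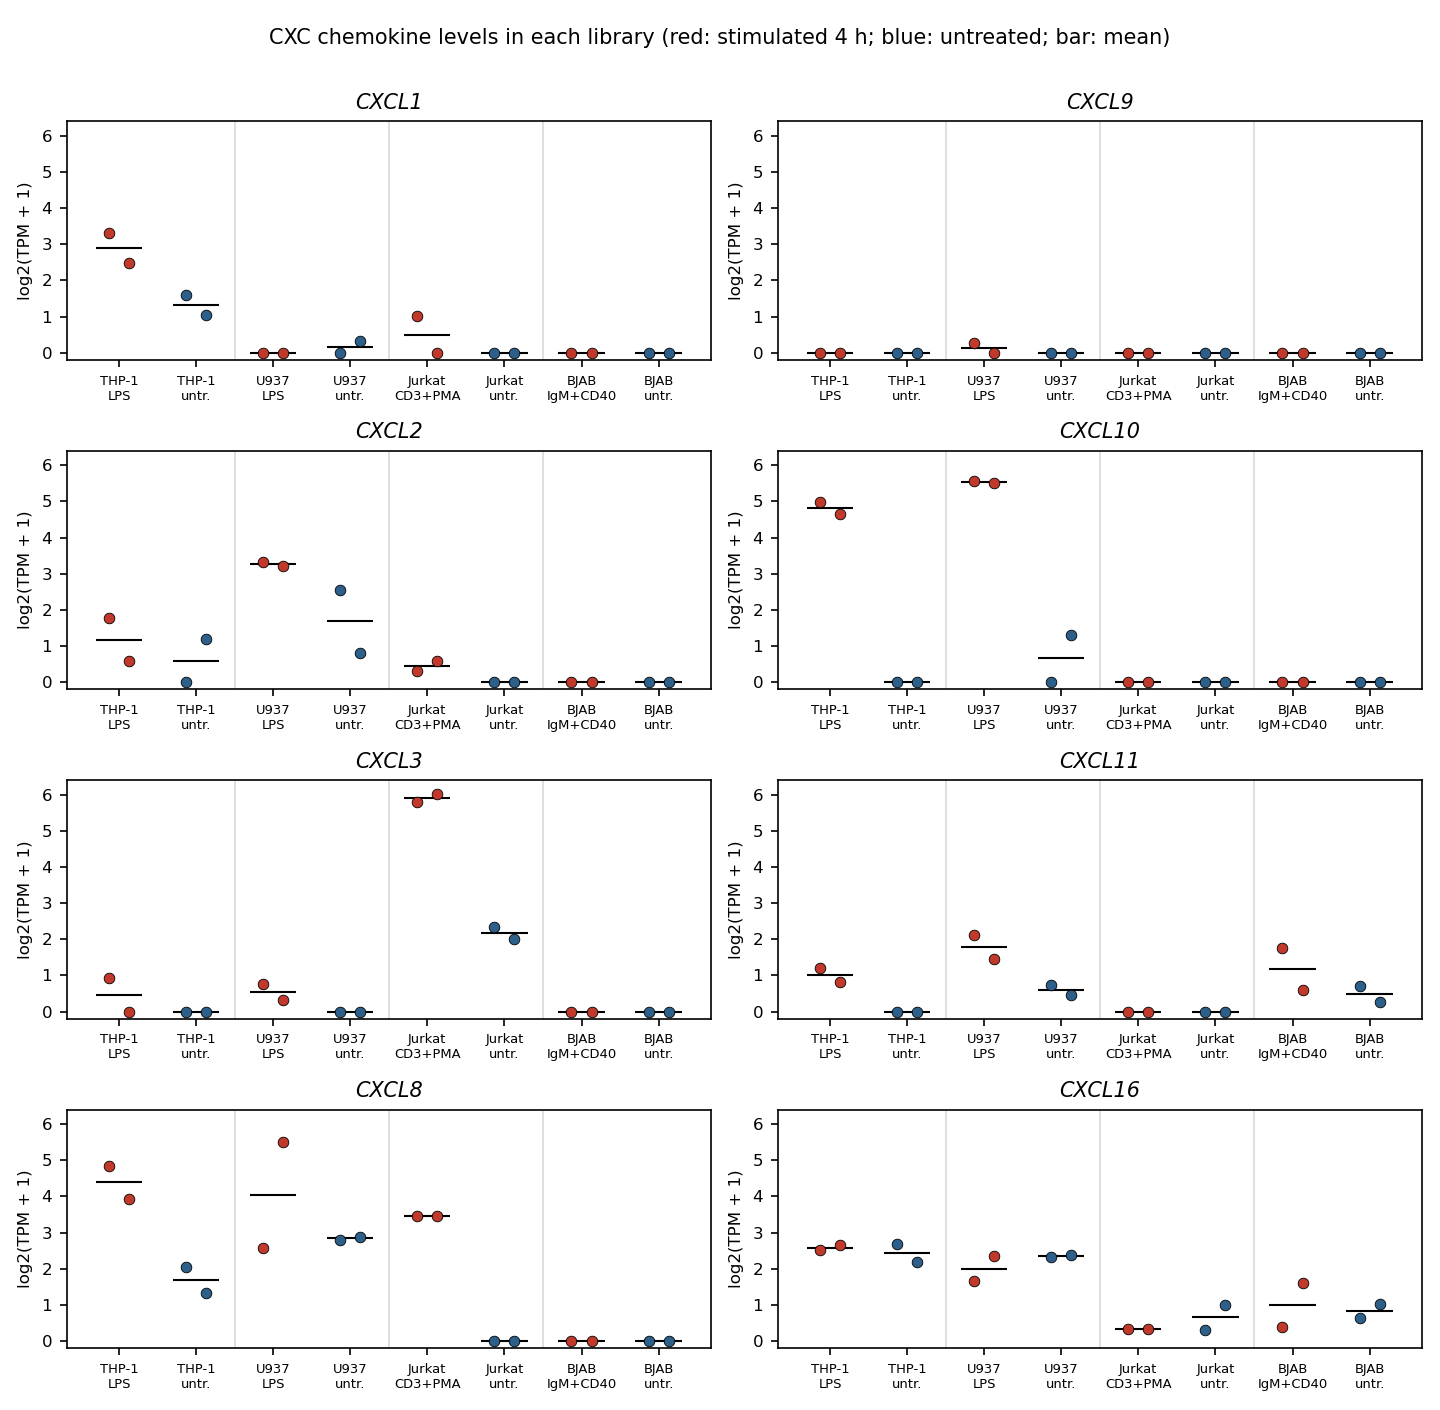
Level of each CXC chemokine in each library as log2(TPM + 1) (y axis) by group (x axis; red, stimulated for 4 h; blue, untreated; bars, group means of 2 libraries). CXCL10 is high in LPS-treated THP-1 and U937 and at 0 in Jurkat and BJAB, CXCL3 is high in Jurkat, and the 2 LPS-treated U937 libraries of CXCL8 lie far apart, at 4.92 and 44.6 TPM.

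The CXCR3 ligands were represented almost entirely by CXCL10, and almost entirely in the monocytic lines. CXCL10, also known as IP-10, rose after LPS in both THP-1 and U937 and was listed at 0 in all 8 Jurkat and BJAB libraries. It had 30.3 and 24.3 TPM in LPS-treated THP-1, from 141 and 98 reads, and was listed at 0 in both untreated THP-1 libraries (adjusted p of 4.50e-05 in limma). In LPS-treated U937 it had 46.1 and 44.3 TPM, against 0 and 1.48 TPM in untreated U937, a rise of 4.87 ± 0.32 on the log2 scale with an adjusted p of 5.95e-05. The 2 LPS libraries of U937 had near CXCL10 values, although they lay far apart over all genes. With only the libraries of the compared line in the fit, which leaves few degrees of freedom and called no gene in either line, its adjusted p was 0.202 in THP-1 and 0.668 in U937. CXCL10 made up 95.9% and 97.0% of the summed TPM of the CXCR3 ligands in LPS-treated THP-1 and 92.8% and 96.2% in LPS-treated U937.

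CXCL11, a further CXCR3 ligand, had 1.31 and 0.753 TPM in LPS-treated THP-1 and was listed at 0 in untreated THP-1 (adjusted p of 0.726). In U937 it had 3.38 and 1.76 TPM with LPS and 0.667 and 0.375 TPM untreated, a difference of 1.2 ± 0.34 with an adjusted p of 0.329. It was the one CXCR3 ligand detected in BJAB, with 2.40 and 0.505 TPM after anti-IgM and anti-CD40 and 0.641 and 0.196 TPM untreated, where the groups overlapped and the adjusted p was 0.240. These values rest on 1 to 20 reads per library, and all 4 Jurkat libraries were at 0. CXCL9 was listed above 0 in 1 library, the first LPS-treated U937 library, at 0.200 TPM.

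CXCL16, the transmembrane member, had its higher levels in the monocytic lines and showed no change that passed the test. It had 4.68 and 5.27 TPM in LPS-treated THP-1 and 5.37 and 3.54 TPM in untreated THP-1. In U937 it had 2.14 and 4.11 TPM with LPS and 4.00 and 4.25 TPM untreated, a difference of -0.36 ± 0.39 that became 0.0092 with median-of-ratios scaling and 0.0816 with quantile normalization. Stimulated Jurkat had 0.249 TPM in both libraries, against 0.232 and 1.01 TPM in untreated Jurkat. Stimulated BJAB had 0.320 and 2.02 TPM, against 0.569 and 1.05 TPM in untreated BJAB. It was the only member listed above 0 in all 16 libraries. Levels of ADAM10 and ADAM17, which shed CXCL16, passed the test in none of the 4 stimulations. ADAM17 had 78.2 and 83.5 TPM in stimulated Jurkat and 33.8 and 26.5 TPM in untreated Jurkat (1.40 ± 0.43 on the log2 scale, adjusted p of 0.109), and 1 of these 2 genes was called higher in Jurkat without the 2 libraries that stood apart.

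Summed over the 8 members, LPS-treated THP-1 had 76.4 and 49.5 TPM and untreated THP-1 10.5 and 7.42 TPM. LPS-treated U937 had 66.4 and 103.2 TPM, against 15.5 and 13.5 TPM in untreated U937. Stimulated Jurkat had 66.3 and 73.9 TPM, against 4.34 and 4.02 TPM in untreated Jurkat. Stimulated BJAB had 2.72 and 2.52 TPM, against 1.21 and 1.24 TPM in untreated BJAB. In each line, both stimulated sums lay above both untreated sums. In BJAB the 2 stimulated sums came from different genes, with CXCL11 giving 88.2% of the first and CXCL16 80% of the second, and neither gene was above both untreated libraries in both stimulated ones. The stimulated sums of THP-1, U937 and Jurkat lay between 49.5 and 103.2 TPM but were made of different genes. CXCL10 gave 39.7% and 49.1% of the sum in LPS-treated THP-1, and CXCL3 gave 82.6% and 85.4% in stimulated Jurkat. In U937 the leading member was CXCL10 in the first LPS library, with 69.4%, and CXCL8 in the second, with 43.2%. Within the ELR chemokines of LPS-treated THP-1, CXCL8 made up 69.3% and 73.7% and CXCL1 22.5% and 23.7%. In untreated Jurkat, CXCL3 made up 100% of the ELR sum in both libraries.

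**Figure D4:**
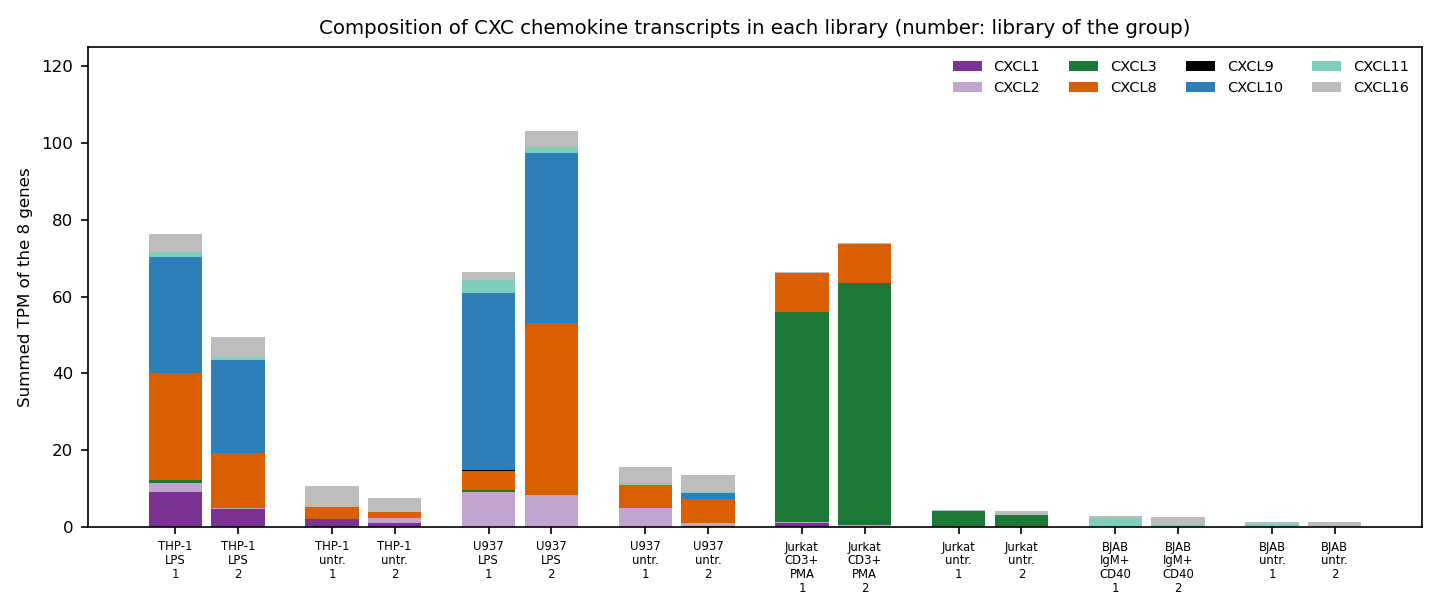
Summed TPM of the 8 CXC chemokines in each library (y axis), stacked by gene, for the 2 libraries of each group (x axis). Sums in LPS-treated THP-1, LPS-treated U937 and stimulated Jurkat reach 49.5 to 103.2 TPM, with CXCL10 and CXCL8 in the monocytic lines and CXCL3 in Jurkat, while BJAB stays at 2.72 TPM or less.

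The responses of the lines were then compared with each other, as differences of the log2 changes. Line, stimulus and dose vary together in these comparisons, as does dCas9-KRAB, carried by THP-1 alone, and they cannot be told apart. Between the 2 LPS responses, THP-1 minus U937, no member passed limma's test, where 0.0486% of genes were called, and 1 member, CXCL1, had an unadjusted p under 0.05. The CXCL10 response differed by -0.06 ± 0.45 (adjusted p of 0.993), a value that became 1.26 with a pseudocount of 0.1 and 1.503 with voom. CXCL10 was at 0 in untreated THP-1 and at 0 and 1.48 TPM in untreated U937, and the cause of this shift was not tested. The CXCL1 response differed by 1.74 ± 0.47, with an adjusted p of 0.519. The SE of the 7 differences ranged between 0.39 and 0.98, and a p that misses the threshold does not show that the responses were alike.

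The other 5 pairs of responses were added after the values were seen and describe where the members separate. The CXCL10 change was larger in THP-1 than in Jurkat (adjusted p of 0.000104) and BJAB (0.000244), and larger in U937 than in Jurkat (9.86e-05) and BJAB (0.000197, or 0.0571 with the compared lines alone). The CXCL3 change in THP-1 minus that in Jurkat was -3.26 ± 0.39 (adjusted p of 0.00066), in U937 minus Jurkat -3.18 ± 0.39 (0.000756), and in Jurkat minus BJAB 3.72 ± 0.39 (0.000163). With a pseudocount of 0.1 these CXCL3 differences had adjusted p-values of 0.770, 0.612 and 0.106, and with voom the THP-1 and U937 ones had 0.540 and 0.457. The CXCL8 response of Jurkat exceeded that of BJAB by 3.46 ± 0.98, with an adjusted p of 0.0723, so it did not pass. The shares of all genes called were 2.49% for THP-1 minus Jurkat, 1.65% for THP-1 minus BJAB, 2.75% for U937 minus Jurkat, 1.6% for U937 minus BJAB and 5.24% for Jurkat minus BJAB.

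The untreated lines already differed in their chemokine levels. Over the 6 pairs of lines, 14 of 42 member tests passed, where 32.4% of all gene-by-pair tests were called, so the members' share is close to the background. Untreated THP-1 had more CXCL1 than untreated U937 (1.16 ± 0.33 on the log2 scale, adjusted p of 0.0227), Jurkat (0.00822) and BJAB (0.008). Untreated Jurkat had more CXCL3 than each of the other lines, in which it was at 0, with adjusted p-values of 5.92e-05 to 6.72e-05. Untreated U937 had more CXCL8 than untreated Jurkat (0.0078) and BJAB (0.00741), both at 0, and more CXCL2 than Jurkat (0.0308) and BJAB (0.0295). CXCL16 was higher in untreated THP-1 than in Jurkat, by 1.77 ± 0.39 (0.00358), and BJAB, by 1.59 ± 0.39 (0.00694), and higher in untreated U937 than in Jurkat, by 1.70 ± 0.39 (0.00506), and BJAB, by 1.52 ± 0.39 (0.0096). Between untreated THP-1 and untreated U937, CXCL1 was the only member that passed.

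Receptors for these ligands were measured in the same libraries. CXCR2, the receptor of the ELR chemokines, had 15.2 and 14.6 TPM in LPS-treated THP-1 and 19.1 and 18.7 TPM in untreated THP-1, and 16.5 and 13.8 TPM in LPS-treated U937, against 17.1 and 17.0 TPM in untreated U937. It reached at most 0.427 TPM in Jurkat and BJAB. CXCR3, the receptor of CXCL10, was highest in Jurkat, with 10.3 TPM in both stimulated libraries and 15.5 and 8.18 TPM in untreated Jurkat, and was listed at 0 in BJAB. Of the 9 receptors, 7 were tested, and 2 fell in stimulated Jurkat, where 1.85% of genes were called lower. CXCR4, the receptor of CXCL12, had 192 and 188.5 TPM in stimulated Jurkat and 523.1 and 471.9 TPM in untreated Jurkat, a change of -1.38 ± 0.33 with an adjusted p of 0.035. ACKR3, a scavenger of CXCL11 and CXCL12, had 1.14 and 0.285 TPM in stimulated Jurkat and 5.04 and 2.15 TPM in untreated Jurkat, a change of -1.39 ± 0.30 with an adjusted p of 0.0181. No receptor was called in THP-1, U937 or BJAB. CXCR4 had 23.4 and 19.2 TPM in LPS-treated THP-1 and 30.4 and 31.4 TPM in untreated THP-1, and 115.7 and 253.3 TPM in LPS-treated U937 against 240.9 and 225.5 TPM in untreated U937. CXCR5 in BJAB had 2.23 and 27.1 TPM with stimulation and 38.7 and 39.2 TPM untreated, and the low value belongs to the library that stood apart. CXCR6, the receptor of CXCL16, reached at most 2.76 TPM, in stimulated Jurkat. Of 9 other CXC ligands, 4 were at 0 in all 16 libraries and 1, CXCL17 in BJAB, reached 1 TPM.

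**Figure D5:**
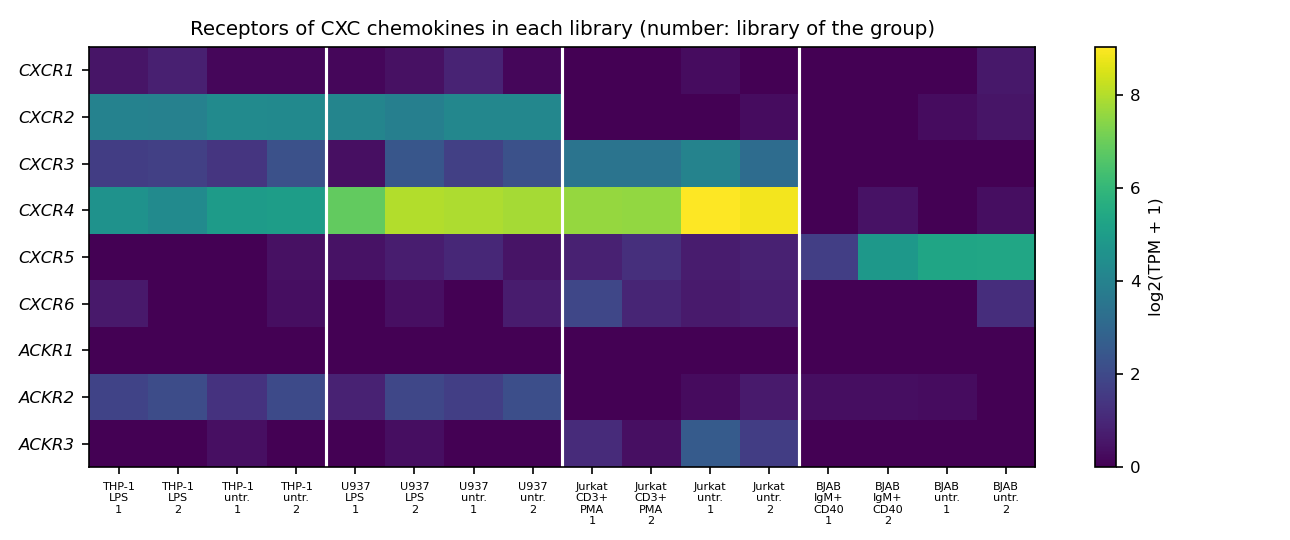
Level of the 9 receptors of CXC chemokines as log2(TPM + 1) (colour) in each library (x axis; the 2 libraries of each group side by side, white lines between cell lines). CXCR2 is high in THP-1 and U937, CXCR3 is highest in Jurkat, and CXCR4 is high in U937 and Jurkat, with its highest values, 523.1 and 471.9 TPM, in untreated Jurkat. CXCR5 is highest in BJAB.

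Genes of the pathways known to act on these promoters moved in part. Of 13 NF-kB subunits and inhibitors, 6 rose in stimulated Jurkat and none fell, where 3.02% of all tested genes were called higher and 1.85% lower. NFKBIA, which encodes the inhibitor IkB-alpha, had 315.4 and 366.6 TPM in stimulated Jurkat and 45.3 and 50.5 TPM in untreated Jurkat (adjusted p of 4.56e-05). RELB, a subunit of the non-canonical pathway, had 41.5 and 44.1 TPM in stimulated Jurkat, against 1.10 and 0.611 TPM in untreated Jurkat (0.00156). The subunit genes NFKB1 (47.8 and 53.8 TPM stimulated, 11.8 and 10.7 TPM untreated, 0.00206) and REL (19.3 and 18.8 TPM stimulated, 5.33 and 5.59 TPM untreated, 0.00215) also rose in Jurkat. In BJAB, 3 of the 13 rose (NFKBIA, NFKB1 and NFKBIE) and 1, REL, fell, where 1.63% of genes were called higher and 4.76% lower. In THP-1 and U937, 0 of 13 passed limma's test, where 0.167% and 0.0278% of genes were called. Without the 2 libraries that stood apart 4 and 1 passed, of 37 and 4 called among all genes. NFKBIA had 212.6 and 186.6 TPM in LPS-treated THP-1 and 85.5 and 77.3 TPM in untreated THP-1, with an adjusted p of 0.132. In LPS-treated U937 it had 174.8 and 173.7 TPM, against 57.3 and 65.6 TPM in untreated U937, with an adjusted p of 0.124. RELA, the p65 subunit, had 50.3 and 61.0 TPM in LPS-treated THP-1 and 51.1 and 54.6 TPM in untreated THP-1, a difference of 0.07 ± 0.60. In U937 it had 10.1 and 38.6 TPM with LPS and 34.8 and 37.9 TPM untreated, a difference of -0.83 ± 0.60 with an adjusted p of 0.445.

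The interferon list of 24 genes, of which 22 were tested, had 0 called in LPS-treated THP-1 and 0 in LPS-treated U937, where 0.167% and 0.0278% of all genes were called, so counts of 0 are near the background. The counts there were also 0 without the 2 libraries that stood apart. IRF8, a myeloid interferon regulatory factor, had 870.7 and 741.7 TPM in LPS-treated THP-1 and 1223 and 1141 TPM in untreated THP-1, and in U937 13.4 and 98.9 TPM with LPS and 88.9 and 98.1 TPM untreated (adjusted p of 1 and 0.347). ISG15, a ubiquitin-like protein induced by interferon, had 70.3 and 78.8 TPM in LPS-treated THP-1 and 64.3 and 58.1 TPM in untreated THP-1, with an adjusted p of 1. In U937 it had 162.6 and 63.9 TPM with LPS and 65.8 and 72.6 TPM untreated, where the high value again belongs to the library that stood apart. IFNB1, the interferon-beta gene, was listed at 0 in all 16 libraries. In Jurkat, SOCS1, a feedback inhibitor of cytokine signalling, rose and RSAD2, an antiviral gene, fell. Of all tested genes, 3.02% were called higher and 1.85% lower there. In BJAB, IRF9, IFIT2, SOCS1 and OAS1 fell and none rose, where 1.63% of all tested genes were called higher and 4.76% lower. Without the 2 libraries that stood apart, which leaves 1 stimulated library in BJAB, 7 rose and 1 fell in Jurkat, and 1 rose and 8 fell in BJAB. That fit also called more genes in all, 1942 against 701 in Jurkat and 1328 against 921 in BJAB.

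Of 19 TLR4 pathway genes, 17 were tested and none was called in THP-1, U937 or Jurkat, where 0.167%, 0.0278% and 4.87% of all genes were called. In BJAB 0 were called higher and 1 lower, where 1.63% and 4.76% of all genes were called. These counts are near the background. Without the 2 libraries that stood apart, 1 of the 17 was called higher in Jurkat, where 1942 of all genes were called. The adaptor MYD88 had 52.5 and 44.9 TPM in LPS-treated THP-1 and 48.1 and 62.5 TPM in untreated THP-1, and the kinase IRAK1 57.9 and 51.7 TPM with LPS and 64.4 and 59.0 TPM untreated. In U937, MYD88 had 46.8 and 167 TPM with LPS and 168.8 and 192.3 TPM untreated, and the low value belongs to the library that stood apart. TLR4 itself, the LPS receptor, fell in BJAB, to 1.82 and 2.10 TPM after stimulation, against 10.9 and 12.0 TPM untreated (adjusted p of 0.00742), and was listed at 0 in all Jurkat libraries. Its partner genes, chosen after their values were seen, differed between the monocytic lines. CD14, the LPS co-receptor, had 4.49 and 8.68 TPM in LPS-treated THP-1 and 6.31 and 5.43 TPM in untreated THP-1, whereas each of the 4 U937 libraries had 0. LY96, which encodes MD-2, had 18.9 and 11 TPM in LPS-treated U937 and 14.8 and 10.7 TPM in untreated U937, against 2.92 TPM or less in THP-1. It was higher still in the lines not given LPS, at 27.2 to 71.1 TPM in Jurkat and 84.5 to 170.8 TPM in BJAB. TLR4 had 8.50 and 9.28 TPM in untreated THP-1 and 30.6 and 26.9 TPM in untreated U937. With LPS it had 5.98 and 6.99 TPM in THP-1 and 6.23 and 19.4 TPM in U937. Of 8 genes listed as AU-rich mRNA decay factors (AU-rich elements are found in chemokine transcripts), ZFP36L1 rose in Jurkat and in BJAB. In Jurkat it had 287.9 and 277.4 TPM stimulated and 13.4 and 12.4 TPM untreated (adjusted p of 1.05e-06 in limma). In BJAB it had 548.7 and 504.9 TPM stimulated and 29.2 and 25.3 TPM untreated (3.01e-06). ZFP36L2 fell in Jurkat (0.0154). Of all tested genes, 3.02% were called higher and 1.85% lower in Jurkat, and 1.63% higher in BJAB. Without the 2 libraries that stood apart, 3 of the 8 rose in Jurkat and 2 in BJAB, again with 1942 and 1328 of all genes called. In THP-1 and U937, 0 of the 8 passed. HNRNPD, an AU-rich binding protein, had the highest mean level of the list over the 16 libraries. It had 253.6 and 290.4 TPM in LPS-treated THP-1 and 259.7 and 262.4 TPM in untreated THP-1. In U937 it had 229.9 and 228.9 TPM with LPS and 257.7 and 229.6 TPM untreated.

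Across the 16 libraries, the 3 genes with the pattern most like each well-expressed member are given by Pearson's r of log2(TPM + 1) among 11419 genes, which reflects line and stimulus together. CXCL3 was most like GDF10 and TNFSF8 (r of 0.988 each) and TNFRSF4 (0.978), which had a mean of 81.5 TPM in stimulated Jurkat and 9.82 TPM in untreated Jurkat. CXCL10 was most like TNFAIP6 (0.896), CCL20 (0.841) and IL1B (0.812). For TNFAIP6, the mean was 14.9 TPM in LPS-treated THP-1 and 1.23 TPM in untreated THP-1, and 5.15 TPM in LPS-treated U937 against 0 in untreated U937. CXCL1 was most like PLA2G4C (0.945), TIFAB (0.938) and FEZ1 (0.934), all highest in LPS-treated THP-1. CXCL2 was most like CCL20 (0.900), PRSS57 (0.892) and SLC25A28 (0.880), all highest in LPS-treated U937. CXCL8, detected in 3 lines, was most like DUSP4 (0.929), LINC00963 and TNFSF14 (0.873 each). Among the members themselves, r was highest between CXCL2 and CXCL10 (0.711) and between CXCL8 and CXCL10 (0.694), and CXCL1 had an r of 0.022 with CXCL2 and -0.071 with CXCL3, its close copies.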

How the data were processed

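TPM values per gene in 16 libraries were deposited by the authors; per the submitters' processing notes, reads were aligned with TopHat2 to hg19. No annotation or counting tool is named in the sources used here; per the labels of the deposited files, only unique alignments were counted. Every file summed to 1000000 TPM. Because values were whole multiples of the TPM of 1 read (tolerance 0.0001), reads were recovered for 17860 of 19092 genes above 0 (93.55%), and 1232 were above 0 in 1 library only. The main test was limma 3.58.1 in R 4.3.3 on log2(TPM + 1) with 1 coefficient per group, a trend in the spread, all 16 libraries, 8 residual and 3.18 prior degrees of freedom, and genes with at least 1 TPM in at least 2 libraries. The script was tested on simulated data. Groups came from the labels.

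Members, gene lists, motifs and tests were chosen with earlier results of these data known. All 8 members are named. From each list, the rule took up to 4 genes with the smallest adjusted p past 0.05 per stimulation, otherwise the 2 with the highest mean TPM. Not every value of these genes is printed, and those of CXCL6 and ADAM10 are left out. Other genes outside the members (CXCR3, CXCR5, CXCR6, IFNB1, CD14, LY96) were named after their values were seen. Alternatives were pseudocounts of 0.1 and 5, no low-value filter and one of 5 TPM, median-of-ratios and quantile scaling, no trend, a replicate block, the compared lines alone, voom on recovered reads, the fit without the first stimulated U937 and BJAB libraries, and each library left out. Upstream sequences are from RefSeq (GRCh38.p14); the deposited files use hg19 and no coordinates were converted. Protein sequences were not used here.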

Additional observations from a re-analysis of the deposited data

How the results depend on the processing

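CXCL10 in THP-1 and U937 kept its call under 14 of 15 alternatives each, CXCL3 in Jurkat under 15 of 15 and CXCL8 in Jurkat under 10 of 15. The number of members called in THP-1, 1 as reported, was 2 with a pseudocount of 5 (CXCL1, adjusted p 0.0403), 3 with quantile normalization, 0 with the compared lines alone and 2 without the libraries that stood apart (U937 LPS 1 and BJAB stimulated 1). In U937, 1 became 0 with the compared lines alone, and 1 to 2 over single libraries left out. In Jurkat, 2 became 1 with a pseudocount of 5 (CXCL8, 0.13) and 1 whichever library was left out. In BJAB, 0 became 0 to 1 and in the difference of LPS responses 0 became 0 to 1 over single libraries left out; the counts of 1 and the 2 in U937 come without the second, not the first, stimulated library (CXCL11 in U937 0.0155, CXCL11 in BJAB 0.00955, CXCL8 in the difference 0.00494), where 5001 genes were called in U937 and 4179 in BJAB. For the untreated lines, 14 became 9 with a pseudocount of 5 and 23 with voom on recovered reads; the CXCL3 differences passed in 19 of 19 alternatives, CXCL2 in 14 of 19 and CXCL1 between THP-1 and U937 in 13 of 18. The cause of these shifts was not tested, beyond the fewer libraries of the fits that leave some out.

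Signs turned only in differences that passed on neither side. CXCL16 in U937 was 0.0092 with median-of-ratios scaling and 0.0816 with quantile normalization. For THP-1 minus U937, CXCL3 was 0.15 without the libraries that stood apart, CXCL10 was 1.26 with a pseudocount of 0.1 and 1.503 with voom, and CXCL11 was 1.38, 1.47 and, without the libraries that stood apart, 0.14. Over single libraries left out, the value ran between -0.0184 and 1.17 for CXCL2 and -0.0921 and 0.395 for CXCL16 in THP-1, -0.27 and 2.67 for CXCL8 in U937, -0.687 and 0.0204 for CXCL16 in Jurkat and -0.44 and 0.75 for CXCL16 in BJAB. For THP-1 minus U937 it ran between -0.54 and 0.39 for CXCL3, -0.71 and 0.60 for CXCL10, and -0.52 and 0.14 for CXCL11.

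Deviations of same-numbered libraries correlated at 0.012 in THP-1, -0.042 in U937, 0.017 in Jurkat and 0.142 in BJAB. Each value sets 1 untreated pair against 1 stimulated pair of the line. It cannot show whether the libraries were paired, and in U937 and BJAB the stimulated pair lay far apart. With the replicate block the members called were 1 in THP-1, 1 in U937, 2 in Jurkat, 0 in BJAB and 0 in the difference of LPS responses. All genes called were 8, 4, 477 and 541 in the 4 stimulations, against 24, 4, 701 and 921 without the block. Over the untreated pairs, the block was fitted to the untreated libraries alone. It called 19 member tests and 46985 of 86388 gene-by-pair tests. The untreated libraries alone without a block called 17 and 48083, and the main fit on all 16 libraries called 14 and 28024. The median of all genes was -0.25 in U937 and -0.14 in BJAB as deposited and 0 with median-of-ratios scaling. CXCL11, with at most 20 reads in any library, and CXCL9, above 0 in 1 library, are limited by depth.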
